A study of Tigriopus californicus with 32 samples.

Results

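The heat shock protein beta-1 genes of the copepod T. californicus are 4 genes, TCALIF_10081, TCALIF_07011, TCALIF_13714 and TCALIF_13715, chosen by their identifiers because the authors' descriptions give all of them that name, out of 21556 genes in the 12 deposited tables. A gene with the same description but from the de novo assembly, comp47454_c0_seq1_35179, is not one of them and is given with the other small heat shock genes. RNA was sequenced from 4 populations, from San Diego (SD-S) and Bird Rock (BR-S) in southern California and from Santa Cruz (SC-N) and Bodega Bay (BB-N) farther north. One regime held the animals from birth at a nonvariable 20°, and adults were taken directly (20NV) or following 2 h at 28° (28ST). The other regime cycled daily between 20° and 28°, and adults were taken as the cool phase ended (20V) or once the warm phase had lasted 2 h (28V). Each of the 16 groups had 2 libraries, and each library was made from a pool of 100 whole adults of both sexes. All animals were offspring of cultures that had been kept at 20°, and they experienced their regime for 1 generation only.

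Small heat shock proteins are chaperones that need no ATP. They form oligomers that bind unfolding proteins and hold them soluble until chaperones such as HSP70, with HSP40 as its partner, refold them. Their genes are among the classical targets of the heat shock response, and in mammals the protein named heat shock protein beta-1 is the one also called HSP27. The role of each single copy in copepods is not known from the descriptions, and the name rests on similarity of sequence. The paper cites RNA interference work in T. californicus, in which animals with a beta-1 gene knocked down had lower thermal tolerance. It describes that gene as upregulated by warmth in all 4 populations in both regimes, without naming the copy. The paper also describes its response as dampened in the variable regime in every population but SC-N, where the fold changes of the regimes were very similar. Among the beta-1 genes it lists only TCALIF_10081 as differentially expressed in every population in both regimes. All 4 genes were in every table except that TCALIF_10081 did not pass the authors' filter on low counts in the BR-S table of 20V vs. 20NV.

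The values are reads of a gene as CPM of its library after TMM scaling. The libraries held between 3647378 and 14509087 reads assigned to genes (median 7413467.5), and the genes were covered by medians of 184 (TCALIF_10081), 278 (TCALIF_07011), 306.5 (TCALIF_13714) and 367 (TCALIF_13715) reads per library. The fewest were reads of TCALIF_10081 in BR-S, with 8 and 7 in the 20NV pools and 7 and 21 in the 20V pools. The pools of a group are called a and b after the suffix of their column names, and pool b was the deeper one in 16 of 16 pairs. Pool a of SC-N 28V stood apart. Its mean correlation with the other 3 libraries of its table, over genes whose mean was 10 or more, was 0.740, the lowest of the 32 libraries, and the values of SC-N 28V are therefore also given without it. In pooled whole animals fewer cells that express a gene and less RNA per cell cannot be told apart, and p-values measure the spread between pools, which may be technical in part.

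The first comparison, 28ST vs. 20NV, asks how animals raised at a nonvariable temperature respond to a first exposure to 28°. All 4 genes were higher after 2 h at 28° in all 4 populations, by between 2.64-fold and 14.7-fold, and the 28ST pools lay above the 20NV pools in 16 of 16 cases. The paper lists all 4 as differentially expressed in every population in this comparison, from the same libraries. Their rises here, by any test, are therefore no independent evidence. The mean rise over the populations was largest for TCALIF_10081 and smallest for TCALIF_07011. Under limma with an adjusted p-value threshold of 0.05, 8 of the 16 differences were called: 4 for BB-N, 3 for BR-S, 1 for SC-N and 0 for SD-S. The background, the percentage of all tested genes called higher, was 0.316% for BB-N, 0.115% for BR-S, 0.0222% for SC-N and 0.028% for SD-S. The share of all genes whose 28ST pools both lay above the 20NV pools was 18.9% for BB-N, 16.2% for BR-S, 14% for SC-N and 9.64% for SD-S, against 4 of 4 beta-1 genes in each. The median change of all genes lay between -0.02 and -0.01 in log2 units, and the median of the 4 genes between 1.92 in SD-S and 3.27 in BB-N.

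**Figure D1:**
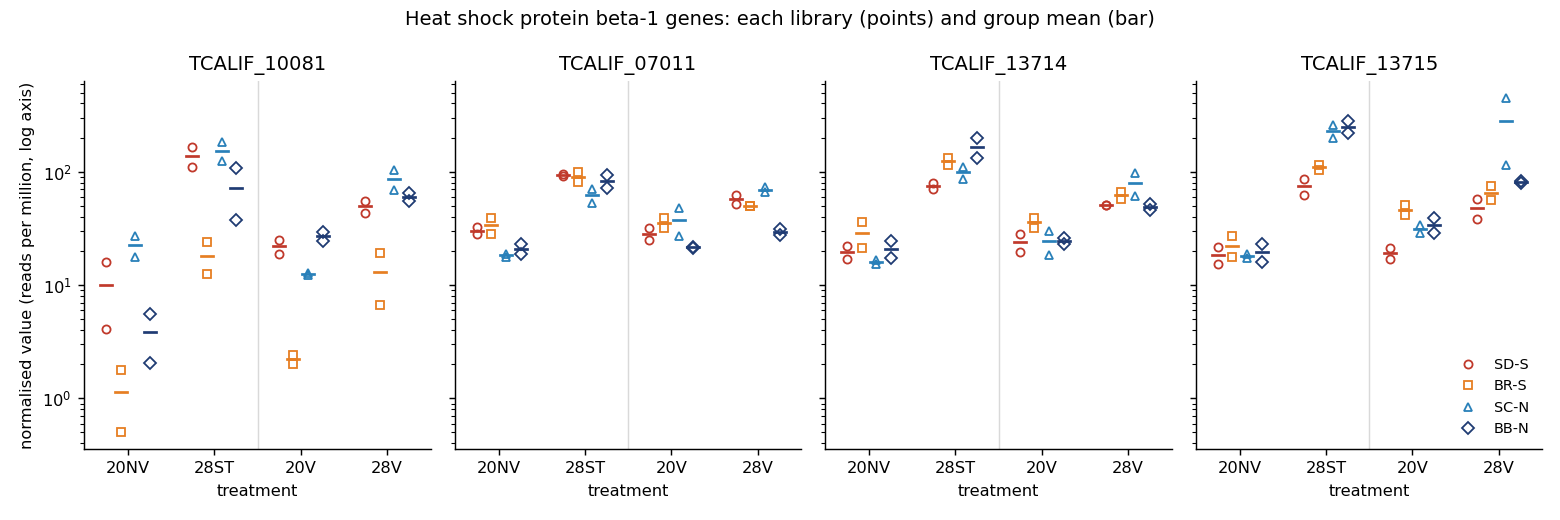
Normalised value (CPM, log axis) of each heat shock protein beta-1 gene in the 4 treatments, with a point for each library and a bar for the mean of the 2 pools, coloured by population. Within each population the 28° pools lie above the 20° pools of the same regime in every panel, and TCALIF_10081 has the widest range at 20°, from 0.504 in a BR-S pool to 29.6 in a BB-N pool.

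TCALIF_10081 had the largest log2 fold changes of the copies in SD-S, BR-S and BB-N, but not in SC-N. In BB-N its values were 2.07 and 5.57 (pools a and b) at 20NV and 37.5 and 107 at 28ST, a log2 fold change of 3.85 ± 0.24 (SE, limma adjusted p = 0.00422). In BR-S they were 1.76 and 0.504 at 20NV and 23.7 and 12.4 at 28ST, with a log2 fold change of 3.16 ± 0.23 (limma adjusted p = 0.0143). Because a pseudocount of 1 was added, this BR-S rise is understated, and edgeR gave 4.17 for it on the recovered reads. In SD-S the values went from 4.07 and 15.8 to 165 and 109, and the log2 fold change of 3.87 ± 0.54 was not called (limma adjusted p = 0.25), with 20NV pools that differed more from each other than those of any other gene of the family in that population. In SC-N the gene was already at 17.7 and 27.3 at 20NV and stood at 182 and 124 at 28ST, a log2 fold change of 2.72 ± 0.31 that was also not called (limma adjusted p = 0.396).

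TCALIF_07011 had the smallest log2 fold change in every population and the least spread between populations. At 20NV the SD-S pools had values of 32.2 and 28.2, the BR-S pools 28.2 and 39.4, the SC-N pools 17.9 and 18.9 and the BB-N pools 18.8 and 22.8. Populations were scaled separately and mapped to different references, so no difference in level between them is read from these values. At 28ST the SD-S pools had 91.6 and 95.4, the BR-S pools 81.4 and 98.6, the SC-N pools 52.5 and 71.0 and the BB-N pools 94.3 and 71.9. The log2 fold changes of SD-S (1.60 ± 0.15), BR-S (1.40 ± 0.17) and SC-N (1.68 ± 0.18) were not called (limma adjusted p = 0.113, 0.0727 and 0.367), and that of 1.94 ± 0.22 in BB-N was (0.0378).

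TCALIF_13714 lay between these genes. The SD-S pools stood at 22.0 and 17.0 before and 79.1 and 70.0 after heating, and the BR-S pools at 21.4 and 35.9 before and 115 and 132 after. For SC-N the values were 16.6 and 15.4 against 86.1 and 111, and for BB-N 17.2 and 24.5 against 198 and 133. The rises were called in BR-S (log2 fold change 2.11 ± 0.19, limma adjusted p = 0.0375) and BB-N (2.92 ± 0.27, 0.0205), and the values of 1.89 ± 0.15 in SD-S and 2.54 ± 0.19 in SC-N were not (0.107 and 0.159).

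TCALIF_13715, whose identifier follows that of TCALIF_13714, had larger log2 fold changes than it in the northern populations. The SD-S pools stood at 21.7 and 15.4 before and 86.8 and 62.9 after heating, and the BR-S pools at 17.6 and 26.9 before and 116 and 104 after. For SC-N the values were 17.5 and 18.7 against 197 and 258, and for BB-N 22.9 and 15.98 against 280 and 219. The rises were called in BR-S (2.28 ± 0.22, limma adjusted p = 0.0389), SC-N (3.57 ± 0.16, 0.047) and BB-N (3.63 ± 0.17, 0.00234), and the value of 1.96 ± 0.15 in SD-S was not (0.107). Among all genes ranked by log2 fold change it was number 5 of 18050 (SC-N), 11 of 17730 (BB-N), 19 of 17460 (BR-S) and 55 of 17866 (SD-S).

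The exact permutation test over the 16 libraries of this comparison, with treatment labels exchanged within populations, gave the same p for each gene, 0.00154, which is the smallest that 1296 arrangements can give (two-sided, adjusted p = 0.00231 over the 12 tests of 4 genes and 3 comparisons). The mean log2 fold changes over the 4 populations were 3.40 ± 0.56 (SD over populations, n = 4) for TCALIF_10081, 2.86 ± 0.86 for TCALIF_13715, 2.37 ± 0.46 for TCALIF_13714 and 1.66 ± 0.22 for TCALIF_07011, each with 8 of 8 pairs of pools in the same direction. A pair here holds the pools of the same suffix and population, 1 from each treatment. The number of single calls depended on the test. All 16 differences were called by the likelihood ratio test of edgeR, which the study used, and by DESeq2, 4 by the quasi-likelihood test of edgeR, 5 by limma without the block and 1 by limma without the variance trend.

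**Figure D2:**
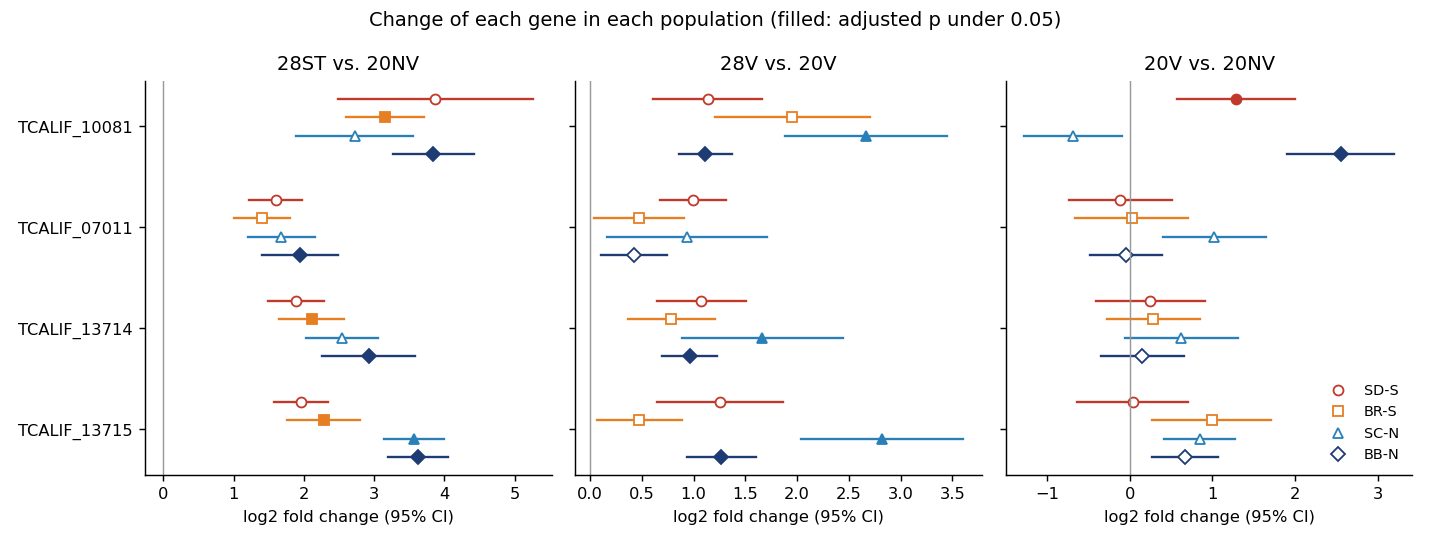
Log2 fold change of each gene in each population, with its 95% confidence interval from limma, in a panel for each of the 3 comparisons, where filled symbols have an adjusted p under 0.05. All intervals of the 28° comparisons lie above 0, and those of 28ST vs. 20NV reach higher values than those of 28V vs. 20V. In 20V vs. 20NV, TCALIF_10081 lies above 0 in SD-S and BB-N and below it in SC-N.

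The second comparison, 28V vs. 20V, asks how animals that met 28° every day responded to it. The 28V pools again lay above the 20V pools in 16 of 16 cases, but the differences were smaller, between 1.34-fold and 7.07-fold. Both pools were higher for 12.6% of all genes of SD-S, 13.4% of BR-S, 13.1% of SC-N and 16.6% of BB-N. Limma called 6 of the 16, 3 in BB-N and 3 in SC-N, where 0.0962% and 0.519% of all genes were called higher, and none in SD-S or BR-S, where the background was 0% and 0.142%. TCALIF_07011 was the gene not called in BB-N and SC-N.

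In BB-N, TCALIF_10081 went from 24.4 and 29.6 at 20V to 54.6 and 64.3 at 28V (log2 fold change 1.11 ± 0.09, limma adjusted p = 0.0325). TCALIF_13714 went from 26.2 and 23.1 to 52.1 and 46.1 (0.96 ± 0.10, 0.0485) and TCALIF_13715 from 38.8 and 28.5 to 83.2 and 79.9 (1.27 ± 0.12, 0.0434). TCALIF_07011 stood at 21.3 and 21.8 against 27.4 and 31.3, a log2 fold change of 0.43 ± 0.12 (0.367). The pools of a group were close to each other in this population, and the groups did not overlap for any of the genes. The 3 calls were lost without the block (limma adjusted p = 0.102 for TCALIF_10081, 0.114 for TCALIF_13714 and 0.0819 for TCALIF_13715) and without the variance trend (between 0.179 and 0.235). With 8 libraries in 1 fit the call of TCALIF_13715 remained (0.0231), and those of TCALIF_10081 (0.379) and TCALIF_13714 (0.231) did not.

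In SC-N the log2 fold changes were larger and the pools less alike. TCALIF_10081 went from 12.1 and 12.7 to 103 and 69.0 (log2 fold change 2.67 ± 0.40, limma adjusted p = 1.65e-08), TCALIF_13714 from 18.4 and 30.1 to 60.6 and 97.4 (1.66 ± 0.40, 0.00272) and TCALIF_13715 from 28.9 and 33.7 to 450 and 114 (2.82 ± 0.40, 1.87e-09). TCALIF_07011 stood at 27.2 and 47.4 against 72.998 and 66.3 (0.93 ± 0.39, 0.345). The value of 450 belongs to the pool that stood apart and rests on 2722 reads. Without that pool the log2 fold changes in SC-N were 2.38 for TCALIF_10081, 2.00 for TCALIF_13714, 1.84 for TCALIF_13715 and 0.87 for TCALIF_07011, all of them still positive and none called (limma without the block, adjusted p between 0.822 and 1.00). Limma also called none of the 4 genes in this table with all libraries once the block was left out (adjusted p = 0.935), and its small p-values here come with a spread pooled completely over genes, so that they cannot be set beside those of the other tables.

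In the south, TCALIF_10081 in BR-S was low at 20V, with 2.01 and 2.44, and stood at 6.67 and 19.3 at 28V (log2 fold change 1.95 ± 0.34, limma adjusted p = 0.0591). TCALIF_13714 stood at 31.9 and 39.4 against 57.3 and 66.6 in BR-S, and TCALIF_13715 at 50.6 and 41.9 against 74.3 and 55.9. TCALIF_07011 stood at 39.4 and 31.7 against 49.5 and 49.3. These last 3 had log2 fold changes of 0.78, 0.48 and 0.47 in BR-S, the smallest being that of TCALIF_07011. In SD-S, TCALIF_10081 stood at 19.0 and 25.2 against 55.4 and 43.6, and TCALIF_13715 at 17.0 and 21.3 against 57.8 and 38.1. TCALIF_13714 stood at 19.5 and 28.3 against 50.4 and 50.8, and TCALIF_07011 at 24.8 and 31.9 against 52.1 and 62.3. All 4 genes were thus higher by 1.99-fold to 2.39-fold in SD-S, and none was called (limma adjusted p between 0.207 and 0.494).

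Over the populations all 4 genes rose in this comparison too by the exact permutation test (two-sided p = 0.00154, the smallest possible, adjusted p = 0.00231 over the 12 tests). The paper lists TCALIF_10081 as differentially expressed in every population here as well, from the same libraries. The result of that gene is therefore no independent evidence. The mean log2 fold changes were 1.72 ± 0.74 (SD over populations, n = 4) for TCALIF_10081, 1.46 ± 0.98 for TCALIF_13715, 1.12 ± 0.38 for TCALIF_13714 and 0.71 ± 0.30 for TCALIF_07011, with 8 of 8 pairs of pools in the same direction each. Without pool a of SC-N 28V they were 1.65, 1.21, 1.21 and 0.69, and the adjusted p was at most 0.00463 in the exact permutation test.

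The third comparison, 20V vs. 20NV, asks whether the regime itself, measured at the same 20°, went with a different level. TCALIF_10081 was higher in the variable regime in BB-N and SD-S and lower in SC-N. Its mean change was not separated from that of any other copy (exact permutation test, adjusted p between 0.407 and 0.48). In BB-N TCALIF_10081 went from 2.19 and 5.86 at 20NV to 24.1 and 29.0 at 20V, a log2 fold change of 2.55 ± 0.27 (limma adjusted p = 0.00988), and ranked number 16 of 17840 genes. In SD-S it went from 4.05 and 16.1 to 18.8 and 25.0 (1.29 ± 0.36, 0.0232), in a table whose spread was also pooled completely over genes. In SC-N it stood at 16.9 and 26.0 at 20NV and at 12.4 and 13.0 at 20V, a log2 fold change of -0.68 ± 0.22 that was not called (0.128). In BR-S, taken from the other tables, it stood at 1.76 and 0.504 at 20NV and 2.01 and 2.44 at 20V, near the filter of the authors, and was not tested.

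These 2 rises were the only calls among the 15 cases in 20V vs. 20NV, and the background of genes called higher was 1.16% (BB-N), 1.4% (SD-S), 0.0546% (SC-N) and 0% (BR-S). The call in SD-S was not made by the likelihood ratio test of edgeR (adjusted p = 0.188) or by DESeq2 (0.661), and neither call was made by limma without the block (0.0969 in BB-N and 1.00 in SD-S). In SD-S the size of the rise depended on pool a of 20NV, and without that pool the log2 fold change was 0.41 (limma without the block). All 20V pools lay above the 20NV pools in 7 of the 15 cases (SC-N 3, BB-N 2, SD-S 1, BR-S 1) and below them in 1 (SC-N). The share of all genes with 20V pools above was 31.7% (SC-N), 17.1% (BR-S) and 13% (SD-S), with 3613 of 17840 genes in BB-N, and the share below in SC-N was 29.4%.

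Of the other genes, TCALIF_13715 had log2 fold changes of 0.99 (BR-S), 0.85 (SC-N), 0.67 (BB-N) and 0.04 (SD-S), none of them called in its table. Its mean over the populations, 0.64 ± 0.42 (SD, n = 4), passed the exact permutation test (two-sided p = 0.00617, adjusted p = 0.00823), with 20V higher in 7 of 8 pairs of pools. TCALIF_13714 (0.33 ± 0.20, adjusted p = 0.063 in the exact test), TCALIF_07011 (0.22 ± 0.54, 0.256) and TCALIF_10081 (1.05 ± 1.63 over 3 populations, 0.141) did not. TCALIF_07011 was higher at 20V in SC-N, with 17.0 and 17.997 against 27.7 and 48.4 (log2 fold change 1.02 ± 0.23, limma adjusted p = 0.0843), and its values in the other populations lay between -0.12 and 0.03.

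The responses of the regimes were then compared within each population, on the reads of all 8 libraries scaled together. Since TCALIF_10081 was not in all tables of BR-S, this covered 15 cases. The response to 28° was smaller in the variable than in the nonvariable regime in all 15, with differences between -2.78 and -0.04 in log2 units. These comparisons share libraries with those above, with 20NV in 2 and 20V in 2 of the 3 comparisons, so they are not separate evidence. Only TCALIF_13715 in BB-N passed the test of this difference (-2.36 ± 0.20, limma adjusted p = 0.0132), in a population where 0.479% of all genes were called lower, against 0% in each of the other populations. The other genes in BB-N had values of -2.75 ± 0.45 (TCALIF_10081, limma adjusted p = 0.0716), -1.97 ± 0.33 (TCALIF_13714, 0.0821) and -1.52 ± 0.26 (TCALIF_07011, 0.0904). Without the block the adjusted p of TCALIF_13715 was 0.0764. The smallest difference was that of TCALIF_10081 in SC-N, -0.04 ± 0.46, and its sign was positive under the likelihood ratio test of edgeR. For TCALIF_13715 in SC-N the difference was -0.73 with all libraries and -1.81 without pool a of 28V.

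**Figure D3:**
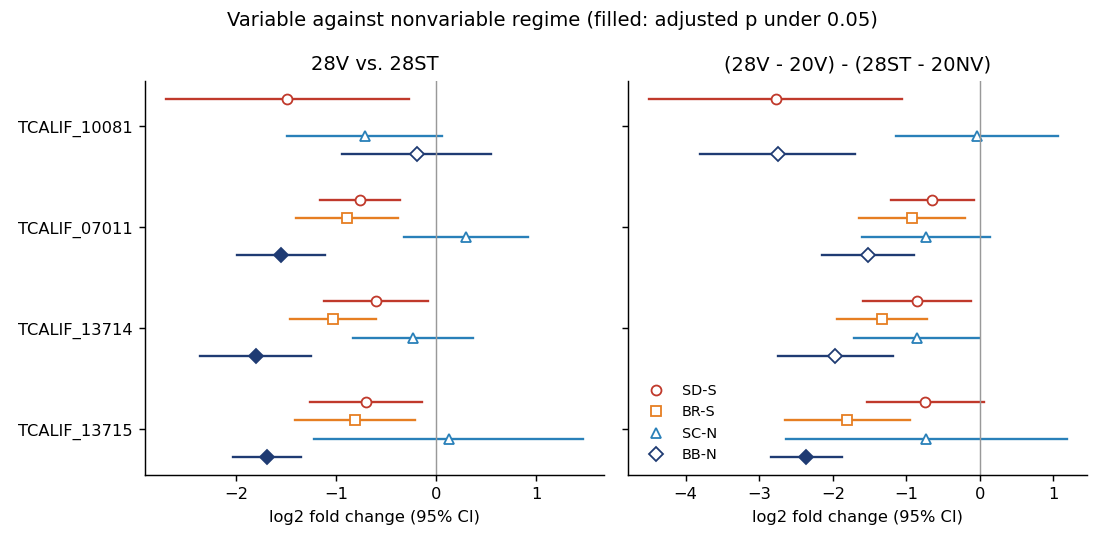
Log2 fold change with its 95% confidence interval from limma for the level at 28° in the variable against the nonvariable regime (left) and for the difference between the responses of the regimes (right), for each gene and population, where filled symbols have an adjusted p under 0.05. In BB-N, 3 genes lie between -1.81 and -1.56 on the left while TCALIF_10081 lies at -0.20, and on the right all 15 values are below 0.

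At 28° itself, 28V vs. 28ST, the levels in BB-N were lower in the variable regime for TCALIF_07011 (-1.56 ± 0.19, limma adjusted p = 0.0191), TCALIF_13714 (-1.81 ± 0.23, 0.0226) and TCALIF_13715 (-1.69 ± 0.14, 0.011). For TCALIF_10081 no difference was called (-0.20 ± 0.32, limma adjusted p = 0.747, 95% confidence interval -0.94 to 0.55). Its pools stood at 39.2 and 111 at 28ST against 53.0 and 62.8 at 28V on the joint scale. In BB-N 0.999% of all genes were called lower, with a background of 0.00575% for SD-S and 0% for both BR-S and SC-N, where none of the genes was called. In BB-N TCALIF_10081 had a higher level at 20V than at 20NV and overlapping levels at 28°. Its value for 28V vs. 28ST was -0.67 without pool a of 28ST and 0.27 without pool b. The other 3 genes had a lower level at 28V than at 28ST. TCALIF_13715 also had both 20V pools above its 20NV pools in BB-N (log2 fold change 0.67, not called). The contrast between the copies in 28V vs. 28ST was not tested. In 11 of 15 cases both 28V pools lay below both 28ST pools, where the background was 27.5% (BB-N), 14.5% (BR-S), 13.4% (SD-S) and 8.94% (SC-N). These were all 7 southern cases in this fit, 3 in BB-N and TCALIF_10081 in SC-N. TCALIF_10081 in BR-S was not in this fit. With each comparison scaled on its own, its BR-S pools overlapped, at 6.67 and 19.3 (28V) against 23.7 and 12.4 (28ST). TCALIF_07011 in SC-N was the only one with both pools higher on the joint scale, at 75.7 and 69.7 against 51.2 and 67.8 (0.30 ± 0.26, limma adjusted p = 0.999). There 12.2% of all genes had both pools higher. This separation depended on the scaling. Scaled by comparison, the SC-N pools of TCALIF_07011 overlapped, at 72.998 and 66.3 (28V) against 52.5 and 71.0 (28ST). In BR-S, with the genes of both tables of 28° against 20°, TCALIF_10081 had a log2 fold change of -0.60 at 28V vs. 28ST and of -1.22 for the difference between responses (limma adjusted p = 0.999 and 1.00).

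Whether the populations differed in their responses was tested for each pair of populations. For 28ST vs. 20NV none of the 24 differences was called by limma, where 0% of all genes was called in each of the 6 pairs. They lay between -1.15 and 1.67 in log2 units. An unadjusted p under 0.05 was found for 7 of the 24, against 1.24% to 4.04% of all genes in the 6 pairs, and the 24 share libraries and are not independent. The largest were those of TCALIF_13715, with a response higher by 1.67 (95% confidence interval 1.19 to 2.15) in BB-N than in SD-S and by 1.61 (1.09 to 2.12) in SC-N than in SD-S. It was also higher by 1.35 (0.62 to 2.07) in BB-N than in BR-S and by 1.29 (0.53 to 2.04) in SC-N than in BR-S. Within the south and within the north the differences of this gene were 0.32 (-0.38 to 1.03) and 0.06 (-0.48 to 0.60). Libraries of SD-S were sequenced together with those of SC-N, and libraries of BB-N together with those of BR-S, so the values of 1.61 and 1.35 compare libraries of the same lanes. The likelihood ratio test of edgeR called 1 of the 24, TCALIF_13715 between BB-N and SD-S (adjusted p = 0.00537). For TCALIF_07011 all 6 differences lay between -0.20 and 0.54.

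For 28V vs. 20V none of the 24 differences was called, with a background of 0.0188% between BB-N and SD-S and 0% in the other pairs. An unadjusted p under 0.05 was found for 9 of the 24, against 1.55% to 4.19% of all genes. They lay between -1.55 and 2.35, and the extremes were both differences of SC-N and of TCALIF_13715, whose log2 fold change in SC-N was 2.82 with and 1.84 without pool a. For 20V vs. 20NV the same test, added after the opposite directions of TCALIF_10081 had been seen, called none of the 21 differences. The background was 0.16% for SC-N and SD-S, 0.0749% for BB-N and SD-S, 0.00626% for SC-N and BR-S and 0% for the other pairs. The difference of TCALIF_10081 was 3.24 ± 0.39 between BB-N and SC-N (limma adjusted p = 0.066) and -1.97 ± 0.50 between SC-N and SD-S (0.181). By the likelihood ratio test of edgeR both were called (adjusted p = 1.05e-09 and 0.0293).

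The copies were contrasted by the log2 ratio of 2 genes within a library, since a ratio compared between treatments does not depend on transcript length, which was not known. For this reason only the change of a ratio between treatments is read, and not its size. In 28ST vs. 20NV, TCALIF_10081 rose by 1.74 ± 0.52 log2 units (SD over populations, n = 4) more than TCALIF_07011 (exact permutation test, two-sided p = 0.00154, adjusted p = 0.0139 over 18 tests, 8 of 8 pairs of pools). TCALIF_13714 rose by 0.71 ± 0.30 more than TCALIF_07011 (adjusted p = 0.0139 in the exact test, 8 of 8 pairs of pools) and TCALIF_13715 by 1.20 ± 0.71 more (0.0185, 8 of 8 pairs). TCALIF_13715 also rose by 0.49 ± 0.45 more than TCALIF_13714 (exact test, adjusted p = 0.0417, 7 of 8 pairs of pools). TCALIF_10081 was not separated from TCALIF_13714 (1.03 ± 0.74, adjusted p = 0.0772 in the exact test) or from TCALIF_13715 (0.54 ± 1.16, 0.407), and its lead was 1.98 and 1.92 in SD-S but 0.18 and -0.85 in SC-N.

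In 28V vs. 20V, TCALIF_07011 again had the smallest rise. The difference was 1.01 ± 0.73 from TCALIF_10081 (exact permutation test, adjusted p = 0.0208), 0.41 ± 0.28 from TCALIF_13714 (0.0333) and 0.75 ± 0.84 from TCALIF_13715 (0.0437), with 7, 7 and 6 of 8 pairs of pools in the same direction. With labels exchanged only between libraries of the same suffix, that is with a replicate block, the adjusted p in the exact test was 0.0527 for TCALIF_13714 and 0.0781 for TCALIF_13715. Without pool a of SC-N 28V the differences were 0.96, 0.52 and 0.52 (adjusted p = 0.0208, 0.0333 and 0.0833 in the exact test). In 20V vs. 20NV none of the 6 pairs differed by this test (adjusted p between 0.0972 and 0.48).

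The ratio of TCALIF_13715 to TCALIF_13714, the copies with consecutive identifiers, differed in its course between populations and comparisons. In SD-S it lay between 0.749 and 1.15 in all 8 libraries. In BR-S it lay between 0.747 and 1.59, with 0.825 and 0.747 at 20NV and 1.59 and 1.06 at 20V. In SC-N it was 1.05 and 1.21 at 20NV and 2.28 and 2.32 at 28ST, and in BB-N it was 1.33 and 0.653 at 20NV and 1.42 and 1.64 at 28ST. In log2 units it was higher at 28ST than at 20NV by 1.03 in SC-N and 0.70 in BB-N, against 0.17 and 0.07 for BR-S and SD-S. The value for BR-S in 20V vs. 20NV was also 0.70 (higher at 20V), beside 0.22 for SC-N and 0.52 for BB-N, and SD-S was lower at 20V (TCALIF_13714 minus TCALIF_13715, 0.21). The contrast of north and south in this ratio was not tested. At 28V the ratio was 7.42 and 1.17 in SC-N, the higher value from the pool that stood apart, and 1.60 and 1.73 in BB-N. In 28V vs. 20V the mean response of TCALIF_13714 minus that of TCALIF_13715 was -0.33 log2 units with that pool and -0.0042 without it, and neither passed the exact permutation test (adjusted p = 0.48 and 0.989). Reads that fit more than 1 gene were dropped by the authors, so where the copies share stretches of sequence their values rest on the parts that differ, which was not tested here.

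**Figure D4:**
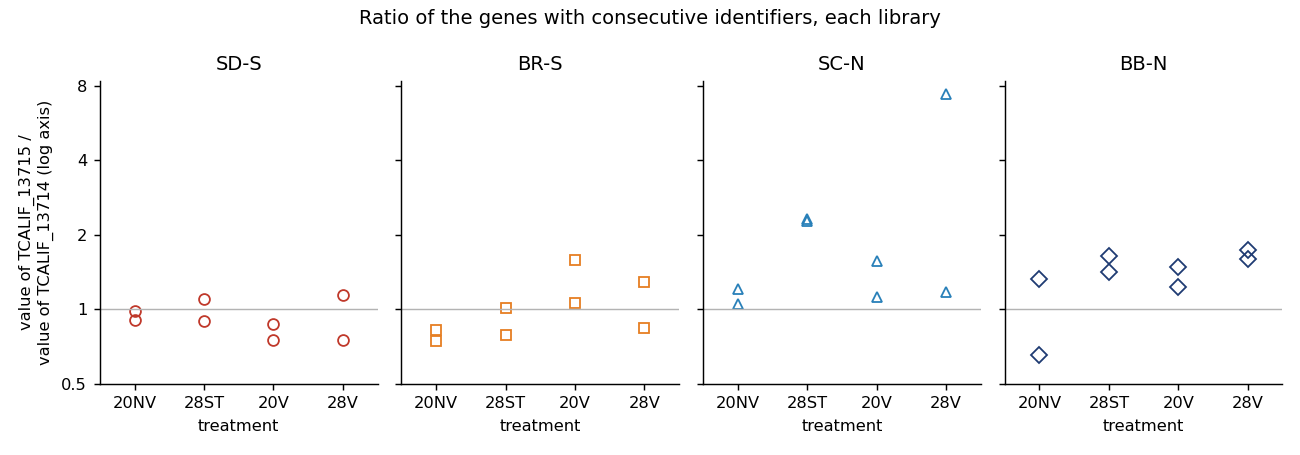
Ratio of the normalised value of TCALIF_13715 to that of TCALIF_13714 (log axis) in each library, by treatment and population, with a line at a ratio of 1 to guide the eye, since transcript lengths were not known and the height itself is not read. The 28ST pools of SC-N lie at 2.28 and 2.32, above its 20NV pools, and the 28V pools of SC-N lie far apart at 7.42 and 1.17.

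Across all 16 groups each gene ran from a lowest level at 20° in the nonvariable regime to a highest level at 28°. The order below is over tables that were scaled separately, and the references to which reads were mapped differed between populations, so levels of different populations are set side by side with that reserve. TCALIF_10081 had its highest mean in SC-N 28ST (153 ± 40.9, SD, n = 2) and SD-S 28ST (137 ± 39.7) and its lowest in BR-S 20NV (1.13 ± 0.891), below BR-S 20V (2.22 ± 0.298) and BB-N 20NV (3.82 ± 2.48). All 4 BR-S groups of this gene were among the 7 lowest, and its level in BR-S at 28ST (18.1 ± 8.01) was close to that of SC-N at 20NV (22.5 ± 6.81), with pools that overlap. TCALIF_07011 spanned the least, from 18.4 ± 0.729 in SC-N 20NV to 93.5 ± 2.70 in SD-S 28ST, and in BB-N its 28V level of 29.3 ± 2.76 lay within the range of the 20° groups of the south.

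TCALIF_13714 ran from 15.985 ± 0.837 in SC-N 20NV to 166 ± 45.4 in BB-N 28ST, and all 8 groups at 28° lay above all 8 groups at 20°. TCALIF_13715 ran from 18.1 ± 0.841 in SC-N 20NV to 282 ± 237 in SC-N 28V, with BB-N 28ST (250 ± 43.1) and SC-N 28ST (227 ± 43.2) next. For this gene only the means of the groups at 28° all lay above those at 20°. The pools of SD-S 28V (57.8 and 38.1) overlapped those of BR-S 20V (50.6 and 41.9). Most neighbours in these orders did not differ beyond the spread of their pools. Of the 15 steps, the pools of neighbouring groups were apart in 6 for TCALIF_13714, 4 for TCALIF_13715, 3 for TCALIF_10081 and 3 for TCALIF_07011.

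The pattern of each gene over the 32 libraries, after the mean of each population was taken out, was set against 9243 genes in all 8 tables of 28° against 20° with a mean value of at least 10 in each population. These correlations are a description, and libraries share populations and lanes. TCALIF_07011 and TCALIF_13714 were most like each other (r = 0.950). The gene most like TCALIF_13715 was TCALIF_09395 (r = 0.956), described as a BAG domain protein like samui, and BAG proteins are known as co-chaperones that bind HSP70. TCALIF_09395 was also among the 3 genes most like TCALIF_07011 (0.903) and TCALIF_13714 (0.939). TCALIF_13715 was further like TCALIF_04918, described as a heat shock protein of the hsp16 type (0.952), and TCALIF_06728, an HSP70 (0.940). TCALIF_13714 was like TCALIF_04182 (0.946), whose description names only an isoform, and TCALIF_07011 like TCALIF_13715 (0.891).

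TCALIF_10081 did not itself pass the limit of 10 in each population, so it could not appear among the genes nearest to the other copies. Its nearest genes were TCALIF_04517, an HSP70 (r = 0.946), TCALIF_12628, which has no description (0.938), and TCALIF_00753 (0.909), described as a 78 kDa glucose-regulated protein, the HSP70 of the endoplasmic reticulum. Its correlation with the other copies was 0.713 with TCALIF_07011, 0.794 with TCALIF_13715 and 0.797 with TCALIF_13714, below the 0.891 to 0.950 among those 3. When the population means were left in, none of its 3 nearest genes stayed the same.

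The other small heat shock genes gave a similar picture in the nonvariable regime. The list holds 6 genes taken from the deposited descriptions and a supplementary table that lists mainly DE genes, so it is no independent evidence. In 28ST vs. 20NV, 6 of 22 gene and population cases were called higher and 0 lower, with medians between 1.98 in BR-S and 3.09 in BB-N, near those of the beta-1 genes. TCALIF_06394, a small heat shock protein, had log2 fold changes between 2.61 in BR-S and 3.37 in BB-N, and TCALIF_00902, an alpha-crystallin B chain, the lens and muscle member of the family in mammals, between 0.32 and 0.78. The comp47454_c0_seq1_35179 gene, which shares the beta-1 description, had values between 0.22 and 1.31 in the 3 tables that hold it, none called, below every beta-1 gene of the same population.

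In 20V vs. 20NV, 8 of 22 cases of that list were called higher, against 2 of 15 for the beta-1 genes, in a comparison of counts that was not tested. The genes called were TCALIF_06394, TCALIF_13523 and TCALIF_11866 in SD-S and BB-N, TCALIF_04918 in BB-N and comp47454_c0_seq1_35179 in SD-S. TCALIF_11866, described as a small heat shock protein, moved like TCALIF_10081, with a log2 fold change of 2.12 (BB-N), 2.00 (SD-S) and -0.45 (SC-N), where the negative value was not called (limma adjusted p = 0.123). It was also one of the genes that did not enter the BR-S tables. Of 7 HSP70 genes, 9 of 27 cases were called higher in the first comparison, 6 in the second and 4 in the third. Of 4 HSP40 genes the counts were 2, 2 and 0 of 14. In 28V vs. 20V the median log2 fold change of the beta-1 genes was 2.17 (SC-N), 1.104 (SD-S), 1.04 (BB-N) and 0.63 (BR-S), against 2.05, 0.35, 0.94 and 0.47 for the other small heat shock genes.

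**Figure D5:**
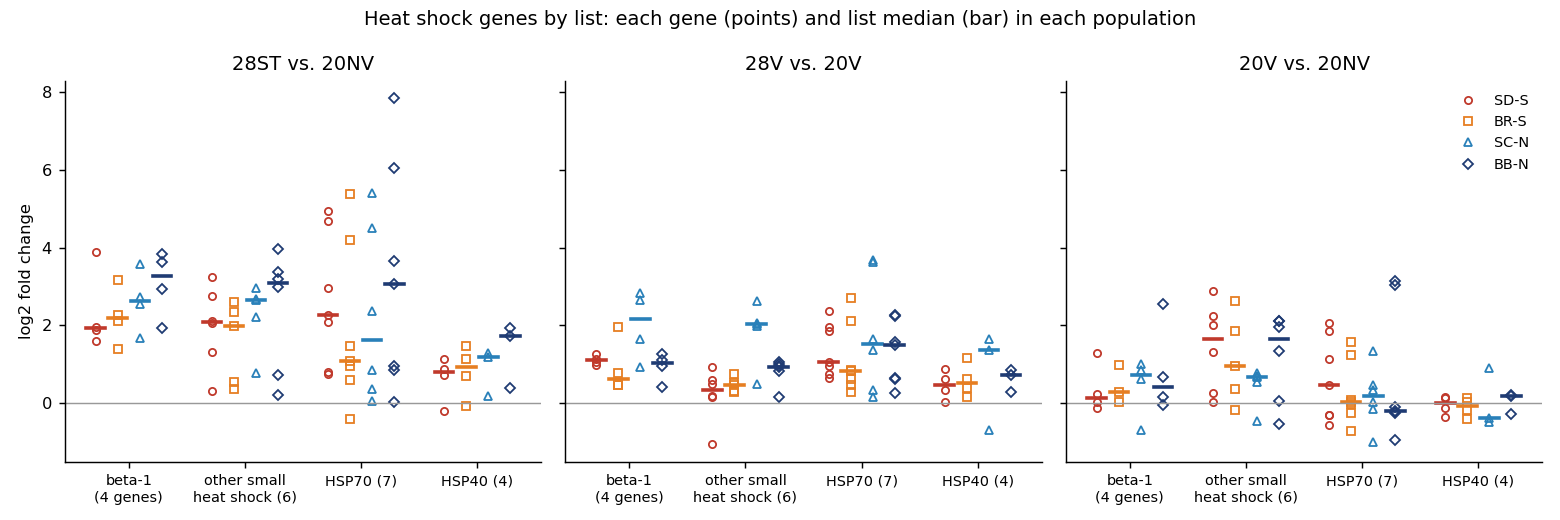
Log2 fold change of each gene of 4 lists of heat shock genes in each population (points) with the median of the list (bar), for the 3 comparisons, where the list names give the number of genes. In 28ST vs. 20NV all 16 values of the beta-1 genes lie between 1.40 and 3.87, while the other lists each hold values below 0.80. The lists were not chosen alike, so this contrast is not read. The paper lists all 4 beta-1 genes as differentially expressed in every population there, but not all genes of the other lists. In 20V vs. 20NV the medians of the beta-1 genes lie between 0.14 and 0.74.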

How the data were processed

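RNA-seq libraries of 4 populations in 4 treatments, 2 pools each, were used. The authors mapped trimmed reads to a reference of each population with CLC Genomics Workbench, kept unique reads, kept genes reaching 2 CPM in 2 or more libraries and scaled the counts with TMM in edgeR. The deposited signal of a library is this scaled CPM, in 1 table per population and comparison. The tables also hold the authors' own fold changes and p-values, which were not used, and 4 further value columns were left out. Another deposited file pairs identifiers with descriptions. Whole reads were recovered from the signal for 100% of entries within 0.01 reads.

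Each table was tested across all genes with limma 3.58.1 after adding a pseudocount of 1 and taking log2, with a trended prior variance and a block for the column suffix, which stands in for the sequencing lane, and Benjamini-Hochberg adjustment over the table. Genes with an adjusted p under 0.05 are called. A fold change on this scale understates changes of low genes. Regimes were compared on jointly TMM-scaled reads, populations by the contrast of their responses. Means over populations and differences between copies were tested by exact permutation within populations in Python 3.11.15. The study's edgeR test (edgeR 4.0.16) and DESeq2 1.42.0 on recovered reads were alternatives. Likeness is Pearson's r of log2(value + 1). All tests are two-sided, and the fits were tested on simulated data.

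Columns name a group and a suffix, and the suffix was not matched to replicate numbers. The block follows the study's methods. Genes were named by rule: the 4 members, the other small heat shock genes, and for each member the 3 most similar genes. Members, lists and tests were chosen with earlier results of these data known. None of the identifiers matched the reference gene list, so no sequence or position is given.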

Additional observations from a re-analysis of the deposited data

Results flagged for a closer look

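In BB-N the response of TCALIF_13715 to 28° differed between the regimes by a test of the difference itself, at -2.36 log2 units in the variable minus the nonvariable regime (limma adjusted p = 0.0132), with a smaller response in the variable regime for both suffixes.

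TCALIF_10081 in 20V vs. 20NV moved in opposite directions in different populations. Its log2 fold changes were 2.55 in BB-N and 1.29 in SD-S, with all pools of 20V above those of 20NV, and -0.68 in SC-N, with all pools below. Among all genes the 20V pools both lay above in 3613 of 17840 in BB-N and 2332 of 17929 in SD-S, and both below in 5393 of 18326 in SC-N. The differences between populations, tested after these directions had been seen, were not called by limma (adjusted p = 0.066 for BB-N and SC-N and 0.181 for SC-N and SD-S).

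TCALIF_07011 was higher at 28V than at 28ST in SC-N, by 0.30 log2 units, while the values of the other populations were -0.76 (SD-S), -0.90 (BR-S) and -1.56 (BB-N). The pools of the groups did not overlap in any population when its libraries were scaled together. In SC-N this depended on the scaling, since its pools overlapped with each comparison scaled on its own. The difference between populations was not tested.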

How the results depend on the processing

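Some alternatives to the main tests were added after seeing the data. They were the tests between populations for 20V vs. 20NV and the values without SC-N 28V pool a. The fits with the genes of both tables of 28° against 20° were also added. No alternative turned the direction of any of the 16 changes in 28ST vs. 20NV or in 28V vs. 20V, over 206 values each. The number of calls moved, and the cause was not tested. In 28ST vs. 20NV (8 calls), 5 were called with no replicate block, 1 with no variance trend, 16 by the likelihood ratio test of edgeR, 4 by its quasi-likelihood test and 16 by DESeq2. In 28V vs. 20V (6 calls), the counts were 0 with no replicate block, 3 with no variance trend, 10 by the likelihood ratio test and 1 with 8 libraries in 1 fit. In 20V vs. 20NV (2 calls), they were 0 with no replicate block, 1 with no variance trend, 1 by DESeq2 and 0 with 8 libraries in 1 fit. The regime difference (1 call) had 0 calls with no replicate block and 5 by the likelihood ratio test, and 28V vs. 28ST (3 calls) had 1 with no variance trend. The likelihood ratio test called 1 difference between populations in 28ST vs. 20NV and 2 in 20V vs. 20NV, where limma called 0. With 1 library left out, calls ranged from 2 to 9 in 28ST vs. 20NV, 0 to 2 in 28V vs. 20V, 0 to 1 in 20V vs. 20NV, 0 to 3 in 28V vs. 28ST and 0 to 2 for the regime difference. In the comparisons against 20NV or 20V each of the 16 calls was lost without at least 2 of its 4 libraries. Such fits assume that a lone library varies like the others. Over all genes the likelihood ratio test called 32 to 2095 genes per table, and limma 0 to 443.

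The pools of the same suffix deviated together by correlations between -0.35 and 0.49, above 0.1 in 8 of 12 tables, so the suffix is not shown to pair them, and the block follows the study's methods. With a replicate block in the permutation for 28V vs. 20V, the difference of 0.60 of TCALIF_10081 minus TCALIF_13714 passed (exact permutation test, adjusted p = 0.0469), and those of TCALIF_07011 minus TCALIF_13714, -0.41 (0.0527), and minus TCALIF_13715, -0.75 (0.0781), did not. Leaving out 1 population or SC-N 28V pool a, differences in 28ST vs. 20NV ranged from -0.85 to -0.62 for TCALIF_07011 minus TCALIF_13714, -1.48 to -0.97 for TCALIF_07011 minus TCALIF_13715, 1.57 to 1.98 for TCALIF_10081 minus TCALIF_07011 and -0.63 to -0.31 for TCALIF_13714 minus TCALIF_13715. In 28V vs. 20V the same differences ranged from -0.53 to -0.31, from -0.998 to -0.37 and from 0.77 to 1.2996, and TCALIF_10081 minus TCALIF_13715 from -0.14 to 0.44. Many of these lose the call, since 3 populations allow only 216 arrangements. In 20V vs. 20NV, TCALIF_10081 minus TCALIF_07011, TCALIF_13714 and TCALIF_13715 ranged from -0.15 to 2.00, -0.14 to 1.72 and -0.14 to 1.57, and the mean response of TCALIF_07011 from -0.045 to 0.34.

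Directions of small values turned when 1 library was left out. In 20V vs. 20NV, TCALIF_07011 ranged from -0.29 to 0.059 (SD-S), -0.21 to 0.26 (BR-S) and -0.17 to 0.088 (BB-N), TCALIF_13714 from -0.0060 to 0.51 (SD-S), -0.078 to 0.65 (BR-S) and -0.084 to 0.39 (BB-N), and TCALIF_13715 from -0.18 to 0.26 (SD-S). In 28V vs. 28ST, TCALIF_10081 ranged from -0.67 to 0.27 (BB-N) and TCALIF_13715 from -0.96 to 1.21 (SC-N). The regime difference in SC-N ranged from -0.51 to 0.44 for TCALIF_10081 and -1.81 to 0.36 for TCALIF_13715. By the likelihood ratio test the regime difference of TCALIF_10081 in SC-N was 0.043, and its response differences in 28ST vs. 20NV were 0.22 (BR-S minus SD-S) and 0.26 (BB-N minus SD-S), the latter 0.053 with a pseudocount of 0.5. Of the 3 genes most like each copy, 0 were shared for TCALIF_10081, 1 for TCALIF_07011 and 1 for TCALIF_13715 when not centred, and 1 for TCALIF_07011 with Spearman's rho.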
